A study of Mus musculus with 3 samples.

Results

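The genes described here are 10 enzymes of threonine, serine and one-carbon metabolism, out of 23154 genes counted in single cells of the mouse blastocyst. They are Tdh, Gcat, Gldc, Shmt1, Shmt2, Mthfd2, Phgdh, Psat1, Ahcy and Asns, and all 10 had counts. Tdh and Asns had earlier been seen to be high in cells with few keratin transcripts, and the question was whether the other 8 genes follow them to those cells. The levels of Tdh and Asns in keratin-low cells are therefore a description, with no test. The other 8 genes were read from a fit across all genes.

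The cells came from 3 libraries, called libraries 1 to 3, which the labels place in 1 group of embryos at embryonic day 3.5. Embryos of the Klf2-H2Bmcherry line, with a fluorescent histone reporter named for the Klf2 gene, were collected at embryonic day 2.5. Per the labels they were cultured both static and with shaking, and cells were picked by mouth pipette from mCherry-positive blastocysts, and no embryo without the reporter was analysed here as a control. The labels do not say which cells had which culture, and the static and shaken cells cannot be told apart. The libraries were made with an optimized Smart-seq2 protocol that captures the 3′ ends of transcripts and marks each cell with an 8 nt barcode.

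In this pathway TDH oxidises threonine in the mitochondrion and GCAT splits the product into glycine and acetyl-CoA. PHGDH and PSAT1 build serine from a glycolytic intermediate. SHMT1, SHMT2, the glycine cleavage system with GLDC, and MTHFD2 move single carbons from serine and glycine onto and along folate, for purines, thymidylate and methyl groups. AHCY clears S-adenosylhomocysteine, which is left after methylation and inhibits methyltransferases. In the mouse, TDH is known for its high level in embryonic stem cells and the inner cell mass, which depend on threonine, whereas the outer trophectoderm is an epithelium rich in keratins 8 and 18.

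Of 288 barcodes, 225 were kept as cells because at least 2000 genes had a count (83, 64 and 78 in libraries 1 to 3). The libraries held 30573711, 27610866 and 54444536 counts, with medians of 286484, 345414 and 608734 counts per kept cell. The libraries share 1 set of barcodes, and 46 barcode numbers were kept in all 3. Ribosomal protein genes took 14.7%, 4.71% and 14.4% of the counts in libraries 1 to 3. Levels are given as CPM, the counts of a gene per 1000000 counts of the summed cells of a class.

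Each library's cells were ranked by Krt8 plus Krt18 and cut into a keratin-low, a keratin-middle and a keratin-high class of 21 to 29 cells. Summed keratin was 89.1, 249 and 177 CPM in keratin-low cells of libraries 1, 2 and 3, against 4326, 5136 and 5218 CPM in keratin-high cells. The classes are ranges and not cell types: 17, 12 and 11 keratin-low cells and 12, 13 and 19 keratin-high cells lay within 1.5 times their boundary. Against the labelled identity of the blastocyst, 13 to 14 of 14 other trophectoderm markers had counts in keratin-low cells and 14 in keratin-high cells. Their summed level was 271 to 359 CPM in keratin-low cells and 1404 to 4092 CPM in keratin-high cells. Epiblast markers summed to 916 to 1462 CPM in keratin-low cells and 284 to 353 CPM in keratin-high cells. The keratin-low class therefore held the cells with more epiblast transcripts, while primitive endoderm markers overlapped between the classes (919 to 1604 CPM in keratin-low and 827 to 3460 CPM in keratin-high cells).

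Part of library 1 stood apart. Of its 27 keratin-low cells, 22 carried barcodes 33 to 64, while that block gave 6 keratin-middle cells and 1 keratin-high cell. Ribosomal protein genes took 5.73% of the counts in these 22 cells, against 21.9% in the other 5 keratin-low cells of the library. A low share was not particular to these cells, as library 2 as a whole was at 4.71%. Epcam, an epithelial adhesion molecule, was at 55.3 CPM in the 22 cells and 688 CPM in the other 5. All 6 oocyte markers had counts in the 29 cells of the block, with a sum of 373 CPM, of which Zp3, a zona pellucida protein, gave 357 CPM. In the other barcode blocks of the 3 libraries, the oocyte markers summed to 28.8 CPM at most. Median totals were alike, at 287974 counts in the 22 cells and 286484 in the other 5. The part of these features in the results was not tested, so the keratin comparisons of levels are given with all cells and again without the 29 cells of that block, an alternative chosen after seeing the data. Without them, library 1 was ranked and cut again, with 18 cells in each class. Its keratin-low class then reached 319 CPM of keratin, against 147 CPM before. Only 5 of these 18 keratin-low cells had been keratin-low before, and all the others had been keratin-middle, so the class was largely replaced. The keratin-high class of library 1 began at 2274 CPM, against 1285 CPM before. In this new cut, 14 keratin-high and 9 keratin-low cells carried barcodes 1 to 32. Blocks were also uneven in library 3, where 12 keratin-low and 0 keratin-high cells carried barcodes 65 to 96. Markers of blood, cumulus, fibroblast and oviduct cells were low in keratin-low and keratin-high cells, at most 31.05, 10.1, 0.73 and 18.0 CPM in sum, with 1 to 2 of 5, 1 to 3 of 6, 0 to 2 of 5 and 2 to 4 of 5 markers having a count. Ptx3, Foxl2 and Amh of the cumulus list, and Hbb-bs, Hba-a1 and Lyz2 of the blood list, were at 0 in these classes.

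Tdh, the threonine dehydrogenase gene at chr14:63492347-63509092 on the minus strand of mm10, shares exon sequence with the antisense gene Gm17232, and its counts may include reads of that gene. It was at 39.4, 118 and 172 CPM in keratin-low cells of libraries 1, 2 and 3, against 31.7, 8.59 and 0.302 CPM in keratin-high cells. The classes did not overlap, but in library 1 they lay close together. Without barcodes 33 to 64, library 1 had 102 CPM in keratin-low cells and 26.3 CPM in keratin-high cells. The mean of the 3 libraries was then 131 ± 36.9 CPM in keratin-low and 11.7 ± 13.3 CPM in keratin-high cells (SD, n = 3). The fitted log2 fold change, keratin-low over keratin-high, was 4.06 with all cells and 4.35 without that block, with an SE of 1.04. Library 3 had 6 counts in all in its keratin-high cells, so its ratio rests on those 6 counts.

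Tdh was a gene of some cells and not of others. Counts were present in 81.5%, 76.2% and 73.1% of keratin-low cells of libraries 1 to 3 (exact binomial 95% intervals 61.9% to 93.7%, 52.8% to 91.8% and 52.2% to 88.4%), against 44.4%, 23.8% and 23.1% of keratin-high cells (25.5% to 64.7%, 8.22% to 47.2% and 8.97% to 43.6%). With each cell thinned to 50000 counts, which left out 2 or 3 keratin-low and 1 or 2 keratin-high cells per library, the shares were 52%, 72.2% and 73.9% in keratin-low cells and 36%, 10% and 4.17% in keratin-high cells. Without the barcode block, the thinned shares in library 1 were 82.4% in keratin-low and 25% in keratin-high cells. The keratin-middle cells had 218, 25.9 and 59.4 CPM. In library 1 that value came mainly from 1 cell of the barcode block 33 to 64 with 2344 CPM, which held 76.3% of the class's Tdh counts. Without that block the keratin-middle cells of library 1 were at 41.3 CPM, between the other 2 classes as in libraries 2 and 3. In library 2, 1 cell held 66.3% of the Tdh counts of the keratin-high class.

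**Figure D1:**
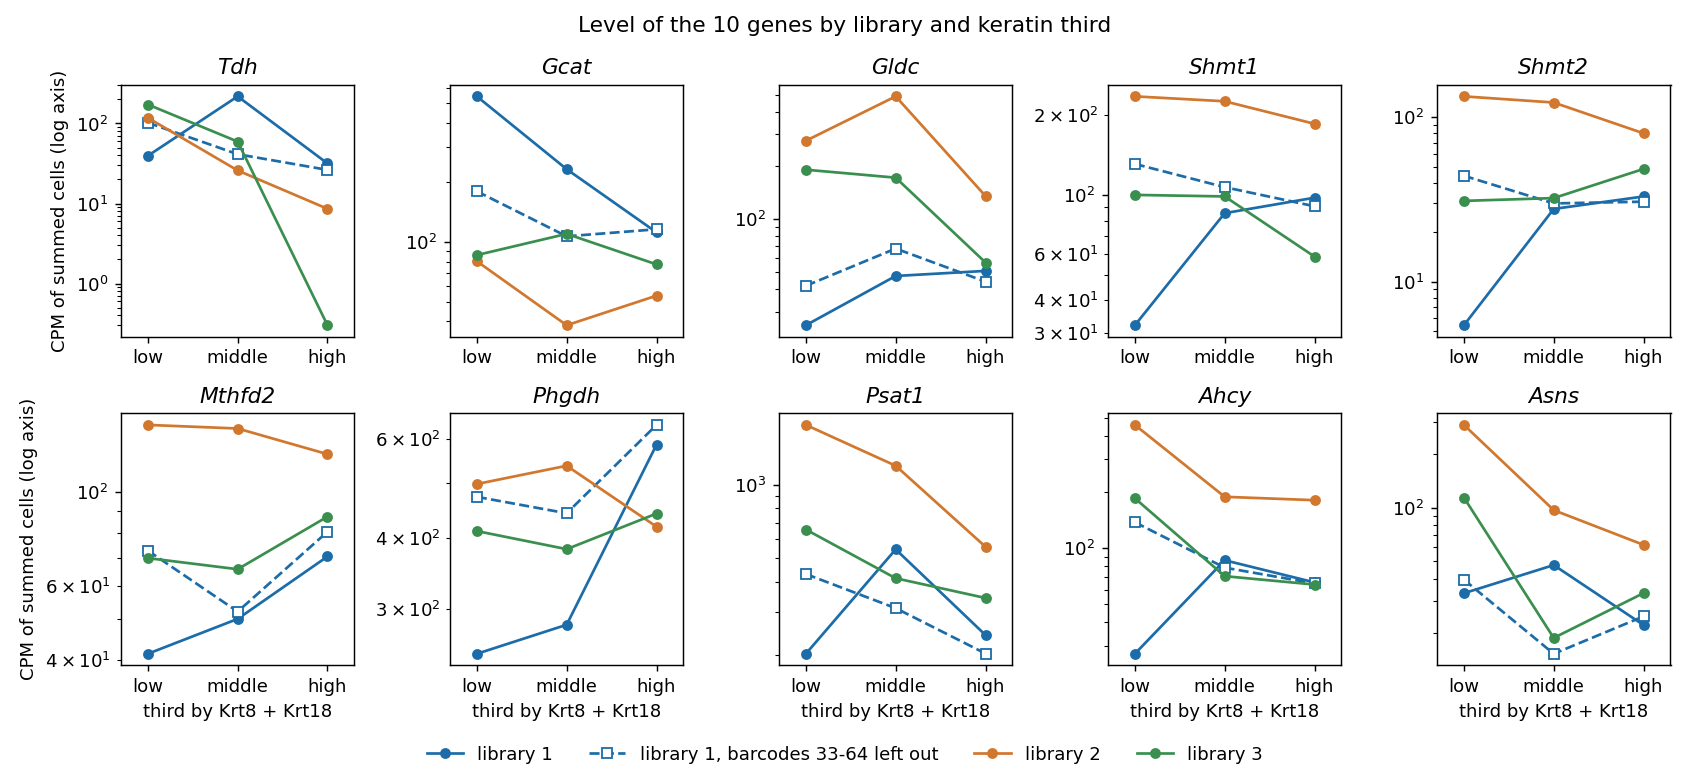
Level of each of the 10 genes in summed keratin-low, keratin-middle and keratin-high cells, in CPM on a log axis, with a line for each library; the dashed line with open squares is library 1 without barcodes 33 to 64. Tdh, Asns, Psat1, Ahcy and Shmt1 lay highest in keratin-low cells of libraries 2 and 3, and library 1 did so for all 5 only on the dashed line; Shmt1 did not pass the test.

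Asns, the asparagine synthetase gene at chr6:7675169-7693254, makes asparagine from aspartate and glutamine and is a known target of the transcription factor ATF4 when amino acids are short. It was at 33.2, 289 and 114 CPM in keratin-low cells of libraries 1 to 3, against 22.0, 61.8 and 33.2 CPM in keratin-high cells. Keratin-low cells were higher in each of the 3 libraries, although the ranges over libraries overlapped. In library 1 this rested on the 22 keratin-low cells of barcodes 33 to 64, at 35.8 CPM. The other 5 keratin-low cells had 14.6 CPM, below the 22.0 CPM of keratin-high cells. The fitted log2 fold change was 1.60 with all cells and 1.61 without the barcode block, where library 1 had 39.5 CPM in keratin-low and 24.6 CPM in keratin-high cells. Counts were present in 55.6%, 76.2% and 46.2% of keratin-low cells of libraries 1 to 3, against 63.0%, 33.3% and 57.7% of keratin-high cells. With cells thinned to 50000 counts the shares were 40%, 72.2% and 43.5% in keratin-low and 44%, 30% and 41.7% in keratin-high cells, so a higher share in keratin-low cells was clear in library 2 alone.

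The RefSeq promoters of Asns and of Psat1 and Ahcy, the 2 members that passed the test below, are shown because Asns carries the ATF4-type motif searched for here and the other 2 do not carry it in this window. The motif was TGATGNAA, read on both strands in the window from 250 bases before to 50 bases after the start (GRCm38.p6). Matches are in capitals, the sequences run 5′ to 3′ on the gene's strand, and each gene is on the minus strand. The windows are chr6:7693160-7693459 for Asns, chr19:15925010-15925309 for the first of the Psat1 entries, and chr2:155074448-155074747 for Ahcy.
Asns: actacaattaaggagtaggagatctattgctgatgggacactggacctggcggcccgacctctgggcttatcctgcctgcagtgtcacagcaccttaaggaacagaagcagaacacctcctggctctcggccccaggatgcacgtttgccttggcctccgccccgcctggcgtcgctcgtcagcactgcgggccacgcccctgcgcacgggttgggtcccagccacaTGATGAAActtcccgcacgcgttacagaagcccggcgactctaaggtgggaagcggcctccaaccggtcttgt
Psat1: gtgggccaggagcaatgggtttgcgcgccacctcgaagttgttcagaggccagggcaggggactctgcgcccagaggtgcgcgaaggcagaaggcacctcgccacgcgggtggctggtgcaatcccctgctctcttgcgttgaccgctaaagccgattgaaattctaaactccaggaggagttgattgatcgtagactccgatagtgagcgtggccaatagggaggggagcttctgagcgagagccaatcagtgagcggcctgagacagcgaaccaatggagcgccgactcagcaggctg
Ahcy: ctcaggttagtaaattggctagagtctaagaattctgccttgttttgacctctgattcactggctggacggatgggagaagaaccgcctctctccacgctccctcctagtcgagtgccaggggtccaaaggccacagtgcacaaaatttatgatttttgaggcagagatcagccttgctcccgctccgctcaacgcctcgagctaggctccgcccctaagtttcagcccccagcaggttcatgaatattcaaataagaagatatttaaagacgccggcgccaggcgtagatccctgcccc

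The match in Asns lay at position -23 from the start. It was the only match among the 9 members with a promoter entry, beside 4.51% of 27025 genes and 3.97% of 32851 windows. The wider list described below includes genes picked for the ATF4 response, so its motif share is no test against all genes. In it, 8 of 55 genes with an entry held the motif, most of them from that ATF4 part. Among the 8 were Slc1a4, a neutral amino acid transporter, and Chac1, a glutathione-degrading enzyme of the ATF4 part. Their matches, which lie on the other strand, are shown with flanking bases from the windows chr11:20332664-20332963 (Slc1a4, minus strand) and chr2:119350992-119351291 (Chac1, plus strand).
Slc1a4: ctcctgcgTTGCATCAtctccagc
Chac1: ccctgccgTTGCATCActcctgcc
Of these 8 genes, 7 were tested without the barcode block and none passed in edgeR, while Gars, a glycyl-tRNA synthetase, had an unadjusted p below 0.05 and was called lower in keratin-low cells by DESeq2. The edgeR fit gave log2 fold changes from -0.84 for Gars to 0.94 for Chac1 and 3 of them positive.

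With all cells, none of the 8 other members passed between keratin-low and keratin-high cells. Over all genes, edgeR called 10 of 13232 (0.0756%), of which 2 were higher in keratin-low (0.0151%) and 8 in keratin-high cells (0.0605%). Unadjusted p was below 0.05 for 1317 genes, and DESeq2 called 867 (6.55%), none of the 8 members among them, and no member had an unadjusted p below 0.05 in edgeR. The median log2 fold change of the 8 genes was 0.29, against 0.04 over all genes tested. Without barcodes 33 to 64 of library 1, edgeR called 742 of 12780 genes (5.81%), with 299 higher in keratin-low (2.34%) and 443 higher in keratin-high cells (3.47%), and the 10 genes called with all cells were among them. DESeq2 called 1589 genes (12.4%). In the edgeR fit 2 of the 8 members passed, Psat1 and Ahcy, both higher in keratin-low cells. The median of the 8 was 0.53, against -0.005 over all genes. Both results describe the same libraries, and the all-cell fit is the one planned.

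Psat1, the phosphoserine aminotransferase gene at chr19:15904678-15947337, catalyses the middle step of serine synthesis. It was at 203, 1759 and 656 CPM in keratin-low cells of libraries 1 to 3, against 242, 557 and 344 CPM in keratin-high cells. Library 1 went the other way from libraries 2 and 3, and the log2 fold change of 0.85 (SE 0.53, adjusted p = 0.649) did not pass. Without the barcode block, library 1 had 431 CPM in keratin-low and 203 CPM in keratin-high cells, so that keratin-low cells were higher in 3 of 3 libraries. Psat1 was then 2.38-fold higher in keratin-low cells, a log2 fold change of 1.25 (SE 0.17, edgeR adjusted p = 0.00273). Single keratin-low cells of library 2 reached from 0 to 3356 CPM around a median of 1505 CPM, beside 0 to 2968 CPM with a median of 417 CPM in keratin-high cells.

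Ahcy, the adenosylhomocysteinase gene at chr2:155059310-155074497, was at 27.2, 458 and 185 CPM in keratin-low cells of libraries 1 to 3, against 65.6, 181 and 63.9 CPM in keratin-high cells. Again library 1 was opposite to the other 2 libraries, and the log2 fold change of 0.65 (SE 0.68, adjusted p = 0.804) did not pass. The 22 keratin-low cells of barcodes 33 to 64 had 13.3 CPM of Ahcy, beside 127 CPM in the other 5. Without the block, library 1 had 138 CPM in keratin-low and 64.8 CPM in keratin-high cells. Ahcy was then 2.55-fold higher in keratin-low cells, a log2 fold change of 1.35 (SE 0.19, edgeR adjusted p = 0.00323), and higher in 3 of 3 libraries. In library 3, the keratin-low cells of barcodes 65 to 96 had 0 to 153 CPM of Ahcy each. Keratin-high cells of that library had 0 to 190 CPM around a median of 42.5 CPM. The part of the other barcode blocks in this result was not tested. Psat1 and Ahcy passed in all 6 fits run without barcodes 33 to 64 of library 1, which include DESeq2, limma on mean CPM and each library left out. Their largest adjusted p was 0.0327 for Psat1 and 0.0427 for Ahcy. Leaving out the whole of library 1 gave log2 fold changes of 1.29 for Psat1 and 1.43 for Ahcy, where 3.35% of 12129 genes passed.

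**Figure D2:**
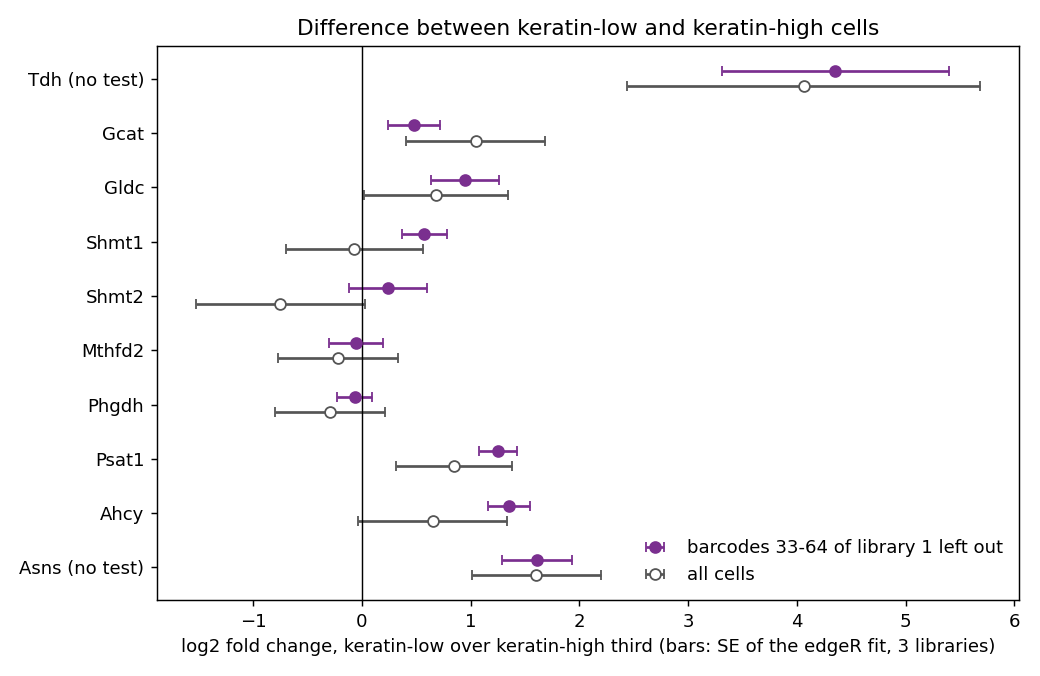
Log2 fold change of keratin-low over keratin-high cells for each gene, with the SE of the edgeR fit over 3 libraries, without barcodes 33 to 64 of library 1 (filled) and with all cells (open). Psat1 at 1.25 and Ahcy at 1.35 passed without that block and none of the 8 tested genes passed with all cells; Tdh and Asns carry no test.

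Gcat, which follows TDH in threonine breakdown, did not pass with or without the block. The annotation holds another locus named Gcat that shares its exons. Gcat was at 542, 80.2 and 86.2 CPM in keratin-low cells of libraries 1 to 3, against 112, 53.8 and 77.4 CPM in keratin-high cells. The high value of library 1 lay in barcodes 33 to 64, at 591 CPM in the 22 keratin-low cells of that block and 192 CPM in the other 5. Without the block library 1 had 180 CPM in keratin-low and 116 CPM in keratin-high cells, and the log2 fold change was 0.48 (SE 0.24, adjusted p = 0.324). With all cells it was 1.05 (SE 0.64, adjusted p = 0.638).

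Gldc, the glycine decarboxylase of the cleavage system, was at 25.1, 276 and 189 CPM in keratin-low cells of libraries 1 to 3, against 50.9, 135 and 56.8 CPM in keratin-high cells. It was higher in keratin-low cells of libraries 2 and 3, with 42.0 CPM in keratin-low and 44.3 CPM in keratin-high cells of library 1 when the block was left out. The log2 fold change was then 0.95 (SE 0.31, adjusted p = 0.127). Of the 6 fits without those cells it passed in 2, DESeq2 and the fit without library 1 (adjusted p = 0.0424).

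None of the folate enzymes passed. Shmt1, the cytosolic serine hydroxymethyltransferase, was at 32.2, 235 and 100 CPM in keratin-low cells of libraries 1 to 3 and at 97.6, 185 and 58.5 CPM in keratin-high cells. Its log2 fold change was -0.07 with all cells and 0.57 (SE 0.21, adjusted p = 0.162) without the block. Shmt2, its mitochondrial relative, was at 5.43, 134 and 30.98 CPM in keratin-low cells and at 32.9, 79.7 and 48.4 CPM in keratin-high cells, with a log2 fold change of -0.75 with all cells and 0.24 (SE 0.36, adjusted p = 0.794) without the block. Shmt1 shares exon sequence with Smcr8 and Shmt2 with Ndufa4l2, both on the opposite strand. Mthfd2, the mitochondrial methylene-tetrahydrofolate dehydrogenase, was at 41.4, 144 and 69.8 CPM in keratin-low and 70.4, 123 and 87.5 CPM in keratin-high cells. Its log2 fold change was -0.06 (SE 0.25, 95% interval -0.54 to 0.43) without the block.

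Phgdh, which opens serine synthesis ahead of Psat1, did not pass with or without the block. It was at 250, 499 and 412 CPM in keratin-low cells of libraries 1 to 3, against 586, 419 and 442 CPM in keratin-high cells, and at 473 CPM in keratin-low and 635 CPM in keratin-high cells of library 1 without the block. The log2 fold change was -0.07 (SE 0.16, adjusted p = 0.888) without the block. Its 95% interval, by a normal approximation that is likely too narrow with 3 libraries, was -0.39 to 0.25. The pseudogene Phgdh-ps1 may share its reads. The difference between Phgdh and Psat1 was not tested as such.

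**Figure D3:**
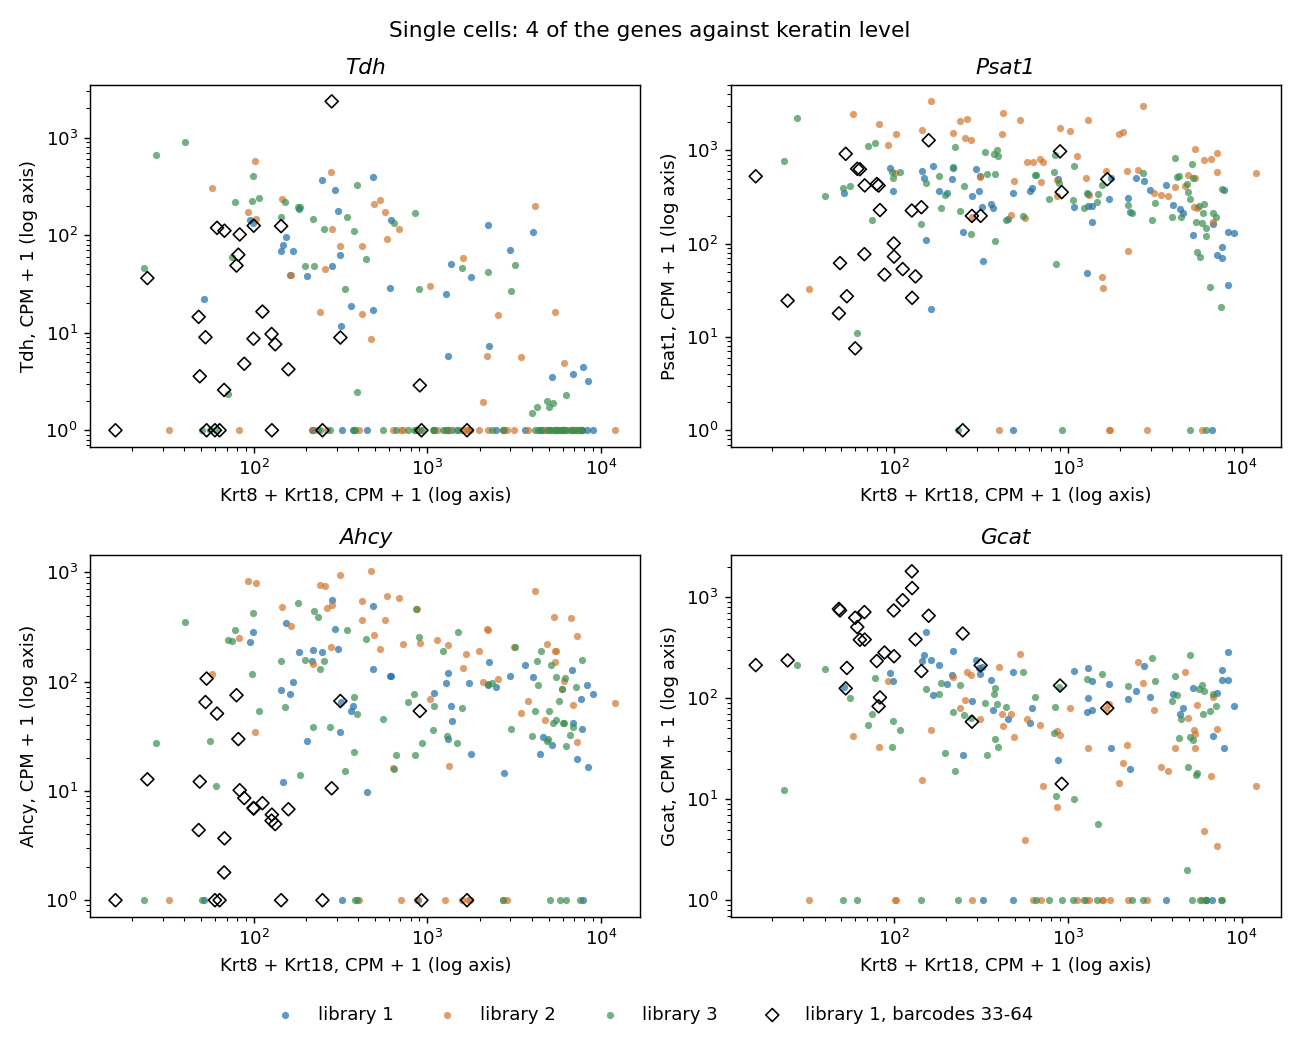
Each point is a cell, with Krt8 plus Krt18 on the x axis and Tdh, Psat1, Ahcy or Gcat on the y axis, both as CPM + 1 on log axes; colours are libraries and open diamonds are the 29 cells of barcodes 33 to 64 of library 1. Those diamonds lay low in Ahcy and high in Gcat beside other cells with as little keratin, and the diamond at 2344 CPM is the highest cell for Tdh.

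The wider pathway list held 73 other genes of serine use, glycine cleavage, the folate and methionine cycles, purine synthesis, amino acid supply and transport, and the ATF4 response. With all cells 0 of the 68 tested passed in edgeR, with a median log2 fold change of -0.09 against 0.04 over all genes. Unadjusted p was below 0.05 for 9 of them, and DESeq2 called 2, Cbs and Slc46a1, both lower in keratin-low cells. Without barcodes 33 to 64 of library 1, 69 were tested, 1 was higher in keratin-low cells, 5 were higher in keratin-high cells and 63 did not pass. The median was then 0.03, against -0.005 over all genes, and the share called, 6 of 69 genes, stands beside 5.81% of all genes. In sub-lists, 0 of 6 purine synthesis genes, 0 of 3 glycine cleavage genes, 0 of 3 serine and threonine genes and 0 of 17 genes of the ATF4 list passed in edgeR, with medians of 0.25, 0.29, 0.02 and -0.06. DESeq2 called Gart of the purine list and Ddit4 of the ATF4 list higher in keratin-low cells, and Gars of the ATF4 list lower. Over the wider list, 19 genes had an unadjusted p below 0.05 in edgeR without the block.

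The genes that passed around homocysteine went in opposite directions. Bhmt, betaine-homocysteine methyltransferase, turns homocysteine back into methionine. Without the block it was at 1837, 4125 and 1505 CPM in keratin-low cells of libraries 1 to 3, against 455, 763 and 456 CPM in keratin-high cells, with no overlap. It was 4.23-fold higher in keratin-low cells, with a log2 fold change of 2.08 (SE 0.15, edgeR adjusted p = 7.61e-05). Its counts may include reads of the antisense gene Gm15622 or the pseudogene Bhmt-ps1. Cbs, cystathionine beta-synthase, draws homocysteine off towards cysteine. It was at 4.10, 77.3 and 29.4 CPM in keratin-low cells, against 121, 544 and 262 CPM in keratin-high cells, again with no overlap. Its log2 fold change was -3.46 (SE 0.35, edgeR adjusted p = 0.000442). Bhmt and Cbs passed in all 6 fits without those cells. Bhmt had 481 CPM in the 22 keratin-low cells of the block and 1445 CPM in the other 5, and with all cells its log2 ratio in library 1 was -0.07.

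Among glutamine and folate genes, Glul, glutamine synthetase, was at 87.0, 54.7 and 67.1 CPM in keratin-low cells and 180, 119 and 185 CPM in keratin-high cells (log2 fold change -1.18, edgeR adjusted p = 0.0149). Slc46a1, the proton-coupled folate transporter, was at 68.2, 78.5 and 57.1 CPM in keratin-low cells and 114, 295 and 206 CPM in keratin-high cells (-1.49, adjusted p = 0.0145). Glul and Slc46a1 did not overlap between the classes. Slc38a1, a neutral amino acid transporter, overlapped between the classes and was lower in keratin-low cells of each library. It was at 6.76, 81.7 and 18.0 CPM in keratin-low cells and 16.8, 185 and 58.4 CPM in keratin-high cells, with a log2 fold change of -1.38 (adjusted p = 0.0288). These 3 calls were less stable than those of Bhmt and Cbs: without library 3 as well as the block, adjusted p was 0.184 for Glul, 0.180 for Slc46a1 and 0.211 for Slc38a1. Without library 2 Slc38a1 missed the threshold too, and without library 1 Glul and Slc38a1 did.

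**Figure D4:**
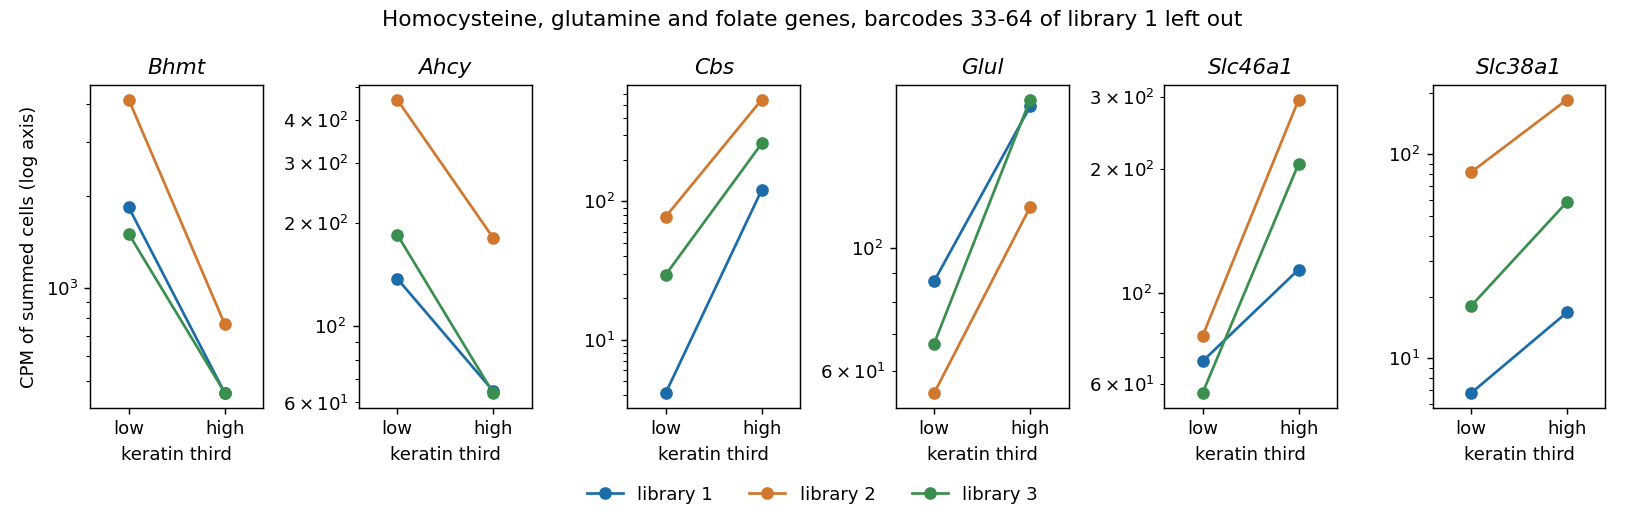
Level of Bhmt, Ahcy, Cbs, Glul, Slc46a1 and Slc38a1 in summed keratin-low and keratin-high cells, in CPM on a log axis, with a line for each library and barcodes 33 to 64 of library 1 left out. Bhmt and Ahcy slope down to keratin-high cells in all 3 libraries, while Cbs, at 4.10 to 77.3 CPM in keratin-low and 121 to 544 CPM in keratin-high cells, and the other 3 genes slope up.

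Within the keratin-low cells, those leaning to epiblast were set against those leaning to primitive endoderm, split at the median of a marker score in each library (10 to 13 and 11 to 14 cells). This contrast was not used in choosing the genes, so all 10 were read from it. The marker lists made the split, so their sums only describe it. Epiblast markers summed to 1056 to 2473 CPM in epiblast-leaning and 438 to 1289 CPM in endoderm-leaning cells, and primitive endoderm markers to 536 to 1144 CPM in epiblast-leaning and 1308 to 2050 CPM in endoderm-leaning cells. Without the barcode block the primitive endoderm sums overlapped, at 478 to 1144 CPM in epiblast-leaning and 683 to 2050 CPM in endoderm-leaning cells. Sox7 was at 0 in the endoderm-leaning cells of all 3 libraries and Sox17 in those of libraries 1 and 2. Trophectoderm markers other than the ranking genes differed in library 1, at 117 CPM in epiblast-leaning and 605 CPM in endoderm-leaning cells, and their part in the result was not tested. No member passed, and 1, Asns, had an unadjusted p below 0.05 in edgeR. Over all genes edgeR called 0 of 12289 (0%), with 439 at an unadjusted p below 0.05, and DESeq2 called 115 (0.936%), none of them a member. Tdh was at 43.3, 139 and 214 CPM in epiblast-leaning cells of libraries 1 to 3, against 35.4, 96.9 and 111 CPM in endoderm-leaning cells. That is higher in 3 of 3 libraries, with a log2 fold change of 0.75 (SE 0.46, edgeR adjusted p = 0.999) and a 95% interval of -0.15 to 1.64. Asns lay the other way, at 26.6, 146 and 32.99 CPM in epiblast-leaning cells and 39.9, 429 and 234 CPM in endoderm-leaning cells, with a log2 fold change of -1.51 (SE 0.60, adjusted p = 0.999). Without the barcode block, Asns in library 1 was at 59.4 CPM in epiblast-leaning and 25.1 CPM in endoderm-leaning cells, opposite to libraries 2 and 3. Ahcy had a log2 fold change of 0.79 (SE 0.43) and Psat1 one of -0.01 (SE 0.29), with a 95% interval of -0.58 to 0.56 for Psat1. The other 6 genes lay between -0.38 and 0.57. Without the barcode block edgeR called 0 of 11264 genes, with 462 at an unadjusted p below 0.05, and the log2 fold change was 0.98 (SE 0.34) for Tdh, -1.25 (SE 0.61) for Asns and -0.14 (SE 0.24) for Psat1.

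No member and no gene of the wider list was among the 5 genes whose levels across cells were most like those of Tdh. Likeness was the mean over the 3 libraries of the within-library Spearman correlation over all 225 cells, among 5899 genes with a count in at least 50% of the cells of each library. Tdgf1, the Nodal co-receptor Cripto, came first at 0.65 (0.59, 0.68 and 0.67 in libraries 1 to 3). Id3, which blocks helix-loop-helix transcription factors, was at 0.57, the phosphatase gene Ppm1a at 0.54, the transcription factor gene Spic at 0.51 and the histone deacetylase gene Hdac1 at 0.47. Without barcodes 33 to 64 of library 1, Tdgf1 was at 0.71 and the first 4 names stood in the same order. Within the 74 keratin-low cells the 5 leading genes were Nfatc2ip, Lsm8, Llph, Cnbp and Gmnn, at 0.59 to 0.54. Without the block, and with library 1 cut again, they were Sms, the spermine synthase gene of the wider list, then Rab3ip, Set, Rrp9 and Fkbp4. The keratin-low list was therefore not stable, and the cause of the change was not tested. Points share libraries and differ in depth, and Tdh itself correlated with the cell's total at 0.27.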

How the data were processed

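Single cells of 3 libraries of 96 barcodes were analysed from whole-number counts per gene, deposited without normalization. The submitters' processing notes list mm10 as the build and CASAVA 1.8, HISAT2 and HTSeq as tools. Not given in the sources used here are the annotation, the handling of strand and that of molecular identifiers, so the values are called counts and not molecules. Genes that overlap another gene can therefore share its counts. The exact binomial intervals cover the sampling of cells only. Intervals of fold changes come from the SE of the edgeR fit over libraries, by a normal approximation. Neither kind covers counts shared between genes.

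A barcode with at least 2000 genes with a count was kept as a cell. No doublet caller was run because the cells were picked by hand. Within each library, cells were ranked by summed Krt8 and Krt18 CPM (counts of a gene per 1000000 counts of the cell) and cut into 3 classes of near equal size. Counts were summed per library and class, so the library was the replicate. After filterByExpr and TMM scaling, edgeR 4.0.16 was run in R 4.3.3 (quasi-likelihood test, library as a block), with Benjamini-Hochberg adjustment over all genes tested and a threshold of 0.05. The block was used because each library supplied a sum of both classes. Krt8 and Krt18 were left out of counts of called genes. Classes were drawn on the cells that were then tested, and the p-values do not include that step. Alternatives used DESeq2 1.42.0, limma 3.58.1 on mean CPM with a pseudocount of 1, other filters, and each library left out. The edgeR fit was also run on simulated counts made from the all-cell sums. DESeq2, limma and the fits without the barcode block were not run on simulated data.

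The 10 genes, the wider list of 73 pathway genes and the markers were chosen with earlier results of these data known. Genes are named by 3 rules, namely all 10 members, each gene of the wider list that passed, and the 5 genes most like Tdh, except that 1 gene of the wider list that passed is counted but not reported here. The labels name no separate cultures or animals behind the libraries, so p-values measure the spread between these libraries, which may be technical. Gene positions are from GENCODE on mm10, and promoter sequences are from RefSeq on GRCm38.p6, the same assembly. Promoter entries were matched by symbol for 9 of the 10 genes, all but Tdh.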

Additional observations from a re-analysis of the deposited data

Results flagged for a closer look

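The 63 barcodes with fewer than 2000 genes with a count, which no comparison used, still held 535 counts of the 10 genes, above the 3 counts that a count of 0 allows. They were 26 counts in library 1, 231 in library 2 and 278 in library 3, out of 319716 counts of all genes in these barcodes.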

How the results depend on the processing

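edgeR called 10 genes between keratin-low and keratin-high cells. It called 165 with no filter on low counts, 0 with no replicate block, 0 with at least 4000 genes per barcode (1315 at an unadjusted p below 0.05), 47 with cells thinned to 50000 counts, 278 without cells over 2.5 times the median total, 86 with cells cut into 2 classes and 5 with cells cut into 4 classes, 17 with cells ranked by other trophectoderm markers and 48 with Krt8 and Krt18 left out of library sizes. DESeq2 called 867 and limma on mean CPM 101. Leaving out 1 library gave 17 to 406. Without barcodes 33 to 64 of library 1, counts were 742 with edgeR, 524 with limma, 1589 with DESeq2 and 225 to 808 when a library was also left out. Between epiblast-leaning and endoderm-leaning cells, 1 gene was called with no filter and 115 by DESeq2, against 0. Of the wider list, DESeq2 called 11 genes without the barcode block (5 higher and 6 lower in keratin-low cells), against 6 with edgeR. The cause was not tested.

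Psat1, Ahcy, Gcat and Gldc kept a positive log2 fold change under every alternative run, and so did Tdh and Asns. Their lowest values were 0.36 for Psat1, 0.035 for Ahcy, 0.36 for Gcat, 0.0089 for Gldc, 2.04 for Tdh and 1.06 for Asns, so Ahcy and Gldc came close to no difference. The other 4 members changed sign. Shmt1, at -0.07, was 0.11 with no replicate block, 0.16 thinned, 0.058 with limma, 0.49 without high-total cells, 0.045 with 4 classes, 0.57, 0.52 and 0.62 without the barcode block (edgeR, limma and DESeq2), -0.63 to 0.55 without 1 library, and 0.54 to 0.67 without the barcode block and 1 library. Shmt2, at -0.75, was 0.035 with no replicate block, 0.24, 0.22 and 0.28 without the barcode block, -1.60 to 0.050 without 1 library, and -0.058 to 0.74 without the barcode block and 1 library. Mthfd2, at -0.22, was 0.032 thinned, 0.073 with limma, 0.087 without high-total cells, 0.15 with limma without the barcode block, and -0.23 to 0.14 without that block and 1 library. Phgdh, at -0.29, was -0.65 to 0.070 without 1 library and -0.25 to 0.014 without the barcode block and 1 library. Within keratin-low cells, Gldc (-0.12) was 0.035 thinned, 0.27 without high-total cells and -0.51 to 0.26 when a library was left out; Shmt2 (0.21) was -0.60 with no replicate block, -0.48 thinned, -0.31 with limma, -0.44 without high-total cells and -0.23 to 0.73 when a library was left out; Mthfd2 (0.27) was -0.045 with no replicate block and -0.070 to 0.61 when a library was left out; Psat1 (-0.01) was 0.34 thinned, 0.37 with limma and -0.37 to 0.19 when a library was left out.

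With 3 libraries, log2 fold changes of 0.48 for Gcat, 0.57 for Shmt1 and 0.95 for Gldc did not pass without the barcode block. Shares of cells with a count move with depth, and 12 of 60 moved beyond their interval when cells were thinned.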

Other observations

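Over all 225 cells, the pairs of members with the highest mean within-library Spearman correlation were Mthfd2 with Asns (0.43) and Phgdh with Psat1 (0.41), where Phgdh and Psat1 catalyse neighbouring steps of serine synthesis. Without barcodes 33 to 64 of library 1 (196 cells) the order differed, with Mthfd2 and Asns at 0.43, Tdh and Ahcy at 0.41, Ahcy and Asns at 0.37 and Phgdh and Psat1 at 0.33. Tdh correlated with Ahcy at 0.35, with Psat1 at 0.29, with Asns at 0.25 and with Gcat, the enzyme of its own pathway, at 0.18. Gldc with Mthfd2 had a mean of -0.18. These are descriptions across cells that share a library and differ in depth. The correlation with the cell's own total count was largest for Shmt2 (0.43) and Gcat (0.37). It was 0.27 for Tdh, 0.35 for Mthfd2, 0.31 for Asns, 0.29 for Phgdh and 0.26 for Psat1. Ahcy was at 0.16, Shmt1 at 0.13 and Gldc at 0.009. Within the keratin-low cells the mean pair correlation was highest for Phgdh with Psat1 (0.54), then Tdh with Phgdh (0.45). It was 0.42 for Ahcy with Asns and for Mthfd2 with Psat1, and 0.36 for Mthfd2 with Asns. Without the barcode block the highest keratin-low means were 0.51 for Mthfd2 with Ahcy and 0.49 for Ahcy with Asns. Phgdh with Psat1 was then at 0.47 and Mthfd2 with Asns at 0.44, while Tdh with Phgdh fell to 0.18 and Mthfd2 with Psat1 to 0.15.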
